A study of Mus musculus with 19 samples.

Results

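The integrated stress response and the unfolded protein response were followed through 10 genes, Atf4, Ddit3, Trib3, Ppp1r15a, Chac1, Asns, Sesn2, Ddit4, Xbp1 and Hspa5, in mouse lavage cells labelled alveolar macrophages, with and without exposure to bacterial particles. They were picked by symbol from the 56941 genes of the deposited tables, and all 10 were among the 20501 genes with enough counts to be tested. The symbol Ddit3 had a second entry that was at 0 in every library and was set aside. RNA from the cells of bronchoalveolar lavage, the airspace cells rinsed from the lung, was sequenced in 19 libraries from female mice 7 to 8 weeks old. The groups were 4 naive wild type (C57Bl/6J), 5 naive ICAM-1 null, 5 exposed wild type and 5 exposed ICAM-1 null libraries. Exposed mice were anaesthetized with isoflurane and aspirated a suspension of Staphylococcus aureus bioparticles (2.27 mg/mL, 100 µL), and their lungs were rinsed after 1 h. The particles carry pHrodo, a dye that brightens in acid compartments. No sorting of the cells is described. ICAM-1 is an adhesion molecule of leukocytes and vessel walls. The sources used here do not state the genetic background of the null line, nor whether naive mice received vehicle or anaesthetic, so the genotype and line background, and the particles and their delivery, cannot be told apart. Nothing states how many mice stand behind a library, so p-values measure the spread between these libraries.

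The integrated stress response begins when a kinase that senses unfolded proteins, amino acid shortage, double-stranded RNA or heme deficiency phosphorylates the translation initiation factor eIF2. Bulk translation then falls while the mRNA of the transcription factor ATF4 is translated more, so that ATF4 protein can change without its mRNA. ATF4 drives genes of amino acid supply, the partner factor CHOP (Ddit3) and feedback genes that restore translation. The unfolded protein response adds ATF6 and the IRE1 branch, in which IRE1 splices Xbp1 mRNA, and together they raise chaperones of the endoplasmic reticulum (ER) such as BiP (Hspa5). The tables give RNA per gene, so neither Xbp1 splicing nor eIF2 phosphorylation was measured.

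Total estimated counts were 32828217 to 80309234 per library, and the lowest 3 belonged to wild type naive mice. Icam1 itself was at 63.8 to 85.9 TPM (transcripts scaled for gene length and library size) in naive wild type and 4.88 to 11.5 TPM in naive null libraries. The 14 alveolar macrophage markers summed to between 24144 and 33123 TPM in every library, but single markers moved. In estimated counts 9 rose and 4 fell with exposure in wild type mice, and 6 rose and 2 fell in null mice. Between naive groups 4 were higher and 1 lower in null mice. Chil3 averaged 15282 TPM over all libraries. Plet1 averaged 1203 TPM in naive and 4695 TPM in exposed wild type libraries, and 1642 and 7436 TPM in null ones. Markers of other cells were also present. With exposure, 13 of 18 airway and alveolar epithelial markers and 5 of 5 tested red cell genes rose in estimated counts in wild type mice. In null mice 10 of 18 (1 fell) and 0 of 5 did. Summed epithelial markers were 1254 to 1609 TPM in naive and 1877 to 4066 TPM in exposed wild type libraries. In null libraries they were 1173 to 1302 TPM before and 1231 to 1880 TPM after exposure. The 2 most abundant epithelial markers moved in opposite directions in TPM. Scgb1a1 averaged 247 TPM in naive and 1266 TPM in exposed wild type libraries, and Krt19 611 and 450 TPM. In null libraries Scgb1a1 averaged 205 and 440 TPM and Krt19 507 and 405 TPM. Red cell genes summed to 134 to 409.7 TPM in naive and 369.7 to 2399 TPM in exposed wild type libraries, and to 97.7 to 352 and 129 to 351 TPM in null ones. The 12 neutrophil markers summed to 67.0 to 94.1 TPM in naive wild type and 170.0 to 185 TPM in naive null libraries. Over all 19 libraries Csf3r and S100a8 had the highest means of these, Elane was at 0 in all 19 libraries and Mpo in 14. In naive mice Csf3r averaged 31.6 TPM in wild type and 99.0 TPM in null libraries, S100a8 11.9 and 29.7, and S100a9 2.24 and 2.52 TPM. The 12 lymphocyte markers summed to 683 to 778 TPM in naive wild type and 402 to 484 TPM in naive null libraries, and to 553 to 677 and 332 to 399.9 TPM after exposure. Among the lymphocyte markers, Cd2 averaged 496 TPM in naive wild type and 236 TPM in naive null libraries, and Gzma 140 and 120 TPM. The part of these other cells in the results below was not tested. In bulk RNA, fewer cells of a type, less RNA per cell and a change of single marker genes cannot be told apart.

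**Figure D1:**
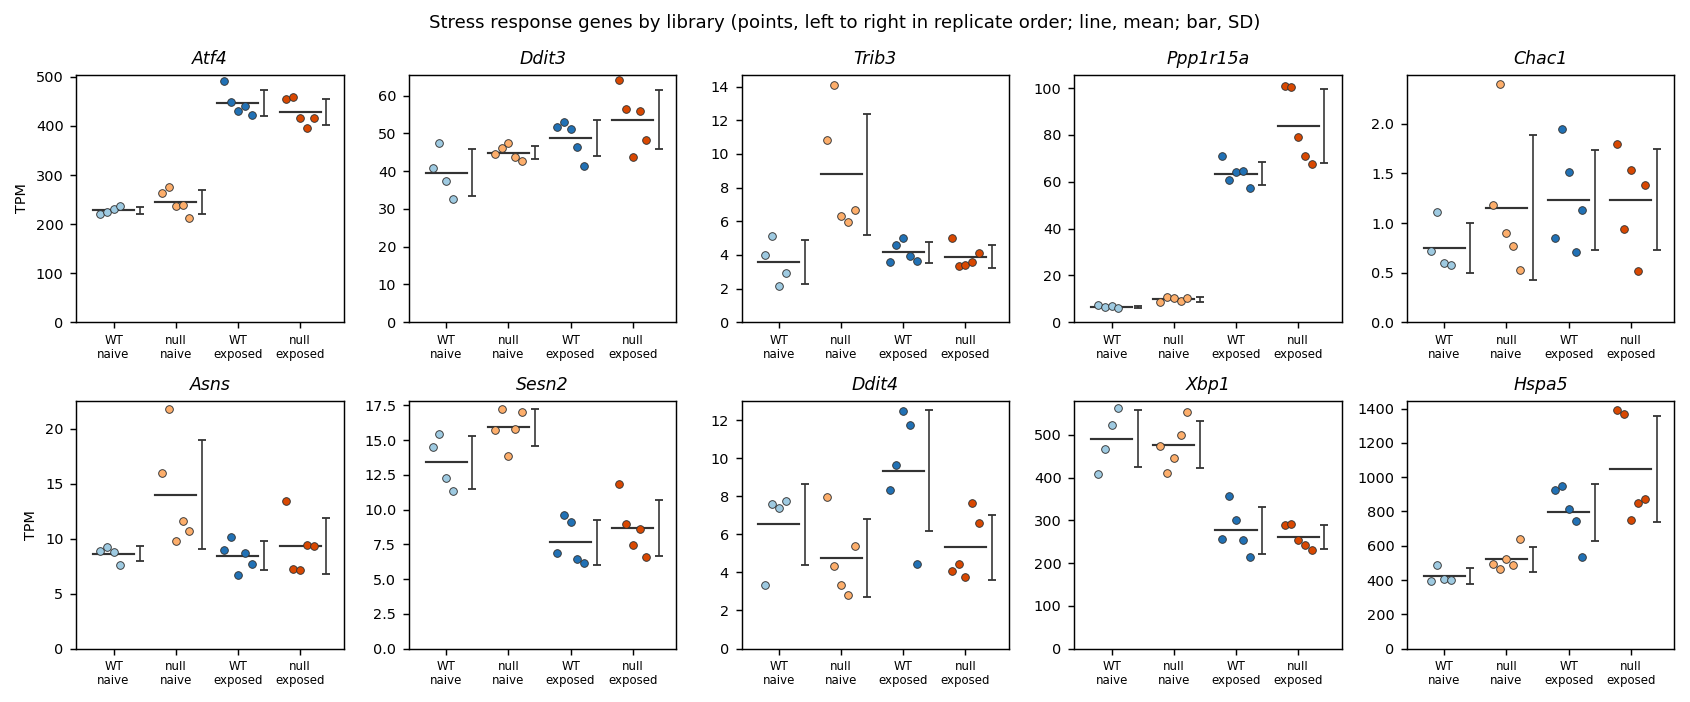
Level of each of the 10 genes in TPM (y axes, starting at 0) in every library of the 4 groups (WT, wild type; null, ICAM-1 null); points are libraries, lines are means and bars are SD. Within each genotype, exposed libraries lie above naive ones without overlap for Atf4, Ppp1r15a and Hspa5 and below them for Sesn2 and Xbp1, while Trib3 and Asns stand highest in naive null libraries 1 and 2.

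Exposure to the particles was tested first in wild type mice. A gene was called changed at an adjusted p under 0.05 in edgeR's quasi-likelihood test, with Benjamini-Hochberg adjustment over all 20501 genes. By that rule 7 of the 10 genes changed in wild type mice, 5 higher and 2 lower, where 40.2% of all tested genes were called, 20.1% higher and 20.2% lower. In null mice 7 of 10 changed, 4 higher and 3 lower, beside 44.8% of all genes, 21.4% higher and 23.4% lower. The median log2 change of the 10 genes was 0.77 in wild type and 0.48 in null mice, against 0.02 over all tested genes in each. TPM of the naive and exposed groups did not overlap for 5 of the 10 genes in wild type mice and 6 in null mice, beside 40.2% and 40.7% of all tested genes. The exposure comparisons share no library with each other, but each shares its libraries with the genotype comparisons.

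Fold changes below come from the estimated counts with TMM scaling, whereas levels are in TPM. The scales differ. On log2(TPM + 1), called the TPM scale below and tested with limma, the median of all genes with at least 1 TPM in some group moved by -0.34 with exposure in wild type and by -0.32 in null mice. There the calls split into 12.3% higher and 51.7% lower in wild type mice and 13% and 51.5% in null mice. A rise in counts can therefore be flat in TPM. For the 10 genes, no call changed sign between the scales.

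Atf4 (chromosome 15, 80139385 to 80141742, GRCm39, plus strand) encodes the transcription factor at the centre of the integrated stress response. Its mRNA was abundant at rest, at 220.1, 224, 231 and 236 TPM in the naive wild type libraries. After exposure the wild type libraries held 491, 449.7, 430.4, 441 and 423 TPM. All 5 stood above all 4 naive ones. The mean rose from 228 ± 7.35 (SD, n = 4) to 447 ± 26.5 TPM (SD, n = 5), a log2 fold change of 1.36 (SE 0.08, edgeR adjusted p = 2.2e-11). In null mice the naive libraries held 264, 275, 236, 238 and 213 TPM and the exposed ones 454, 459.7, 416, 396 and 417 TPM. The log2 fold change there was 1.16 (SE 0.08, adjusted p = 6.4e-11), again without overlap. Atf4 rose by 0.97 in wild type and 0.81 in null mice on the TPM scale.

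Ddit3 encodes CHOP, a C/EBP-family factor that ATF4 induces and that is known for its role in cell death under prolonged stress. Its change was smaller. Wild type libraries ranged from 32.7 to 47.5 TPM when naive and from 41.5 to 53.0 TPM when exposed, so the groups overlapped. Null libraries ranged from 42.8 to 47.3 TPM and then from 43.8 to 64.0 TPM. In counts the log2 fold change was 0.68 in wild type mice (SE 0.11, adjusted p = 4.8e-05) and 0.60 in null mice (SE 0.10, adjusted p = 6.7e-05). It was 0.30 and 0.24 on the TPM scale, with adjusted p-values of 0.019 and 0.043 in limma. Ddit3 (chromosome 10, 127126643 to 127132157, GRCm39, plus strand) overlaps Mars1 on the opposite strand. No source used here states whether the counting used strand, so reads of the 2 genes may not be separate.

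Ppp1r15a (chromosome 7, 45172340 to 45175692, minus strand) encodes GADD34, the inducible subunit of the phosphatase that reverses eIF2 phosphorylation and so closes the feedback loop. It was the most strongly changed of the 10. The naive wild type libraries held 7.21, 6.54, 6.84 and 6.16 TPM, and the exposed ones 71.1, 60.7, 64.0, 64.4 and 57.5 TPM. That is a 12-fold rise (log2 3.58, SE 0.14, adjusted p = 1.2e-14). Naive null libraries held 8.50, 10.95, 10.4, 9.01 and 10.3 TPM and exposed null libraries 101, 100.5, 79.0, 71.1 and 67.6 TPM, a 10.8-fold rise (log2 3.44, SE 0.12, adjusted p = 2.3e-15). Every exposed library was far above every naive one in both genotypes. Its constitutive counterpart, Ppp1r15b, rose less, by 0.52 (SE 0.08) in wild type and 0.65 (SE 0.07) in null mice on the log2 scale.

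Among the promoters of the 10 genes (250 bases before to 50 after the RefSeq start, GRCm38.p6), 5 held a match to a searched stress motif, on either strand. The searched words were the ER stress element (CCAAT and CCACG with 9 bases of any kind between them), a shorter form of it with ATTGG 1 base before CCACG, the unfolded protein response element TGACGTGG, the C/EBP-ATF element TGATGNAA and the cAMP response element TGACGTCA. Of 32851 promoters of the same length, 0.119%, 0.0365%, 0.676%, 3.97% and 1.79% held each. A match describes the letters only. The 100 bases before the Ppp1r15a start (chr7:45526269-45526368, minus strand) are shown, a choice made after its values were seen because this gene changed most, with its cAMP response element in capitals, at -12 to -5.
Ppp1r15a: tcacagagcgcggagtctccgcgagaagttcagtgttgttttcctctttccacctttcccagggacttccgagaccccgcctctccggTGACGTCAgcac
Atf4, Ddit3, Sesn2, Ddit4 and Xbp1 had no match to these words in this window.

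Upstream of ATF4, the 4 kinase genes of eIF2 were lower after exposure in both genotypes, a group singled out after its values were seen. Eif2ak3, which encodes the ER stress sensor PERK, changed by -0.57 (SE 0.16) in wild type and -0.44 (SE 0.15) in null mice. Eif2ak1, the heme-regulated kinase, changed by -0.32 and -0.39, Eif2ak2, the double-stranded RNA kinase PKR, by -0.53 and -0.64, and Eif2ak4, the amino acid sensor GCN2, by -0.26 and -0.25. All 4 were also called lower on the TPM scale in both genotypes. The adjusted p of Eif2ak4 in wild type rose above 0.05 without naive library 2 (0.059) or exposed library 1 (0.065). That of Eif2ak3 in null mice did so without naive library 1 (0.065) or exposed library 4 (0.056) or 5 (0.064), and that of Eif2ak4 without exposed library 4 (0.051).

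The list of 17 genes for eIF2 and its control had 7 higher and 6 lower in wild type and 6 and 6 in null mice (on the TPM scale 4 and 9, and 3 and 9). Nck1, an adaptor that holds PP1 near eIF2, rose by 1.80 (SE 0.11) and 1.79 (SE 0.10). The eIF2 subunit Eif2s1 rose by 0.69 (SE 0.09) and 0.64 (SE 0.09), and Eif2b4, a subunit of the eIF2 exchange factor, fell by 0.76 (SE 0.11) and 0.75 (SE 0.10). Of 11 partner factors of ATF4, 7 rose and 3 fell in wild type and 6 rose and 3 fell in null mice (on the TPM scale 4 and 4 in each). Atf3, a stress-induced ATF family member, went from 16.7 ± 3.55 (SD, n = 4) to 228 ± 30.2 TPM (SD, n = 5) in wild type mice, a log2 change of 4.14 (SE 0.16). Jdp2 rose by 1.91 (SE 0.24), Nfe2l2, which encodes the oxidative stress factor NRF2, by 1.27 (SE 0.08), and Cebpb by 0.97 (SE 0.15). In null mice these 4 rose by 3.85, 1.98, 0.97 and 0.92.

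**Figure D2:**
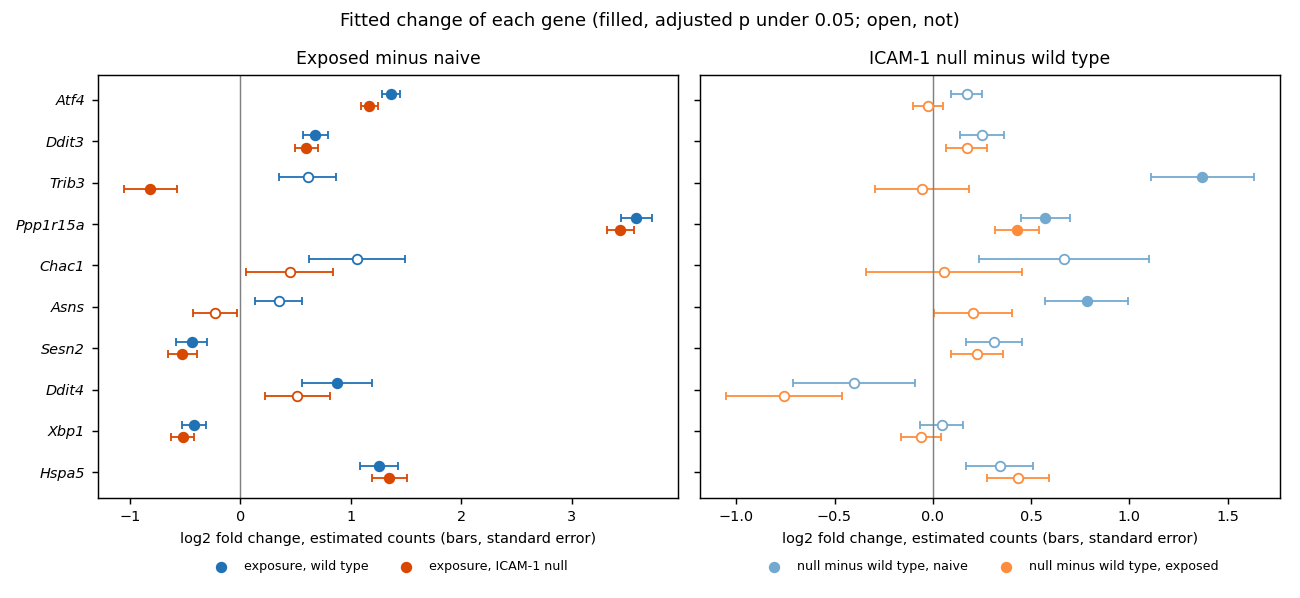
Fitted log2 fold change of each of the 10 genes (x axes) with its standard error (bars), for exposed minus naive libraries in each genotype (left) and null minus wild type libraries at each state (right); filled points passed an adjusted p of 0.05. Ppp1r15a, Atf4 and Hspa5 lie far to the right in both genotypes with exposure, and Trib3 (0.61 in wild type, -0.82 in null mice) and Asns (0.34 and -0.23) have points on either side of 0.

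Trib3, Chac1 and Asns are textbook ATF4 targets. With exposure, none of them was called higher by edgeR fitted without a block on all 19 libraries. In wild type mice Trib3 and Chac1 lay close to the threshold and passed it in other fits, given with each. The edgeR fit with the replicate number as a block also called both, with values given at the end. Trib3 (chromosome 2, 152179342 to 152185952, minus strand) encodes a pseudokinase that binds ATF4 and CHOP and dampens them. The naive wild type libraries held 4.02, 5.13, 2.13 and 2.92 TPM and the exposed ones 3.55, 4.61, 5.01, 3.95 and 3.67 TPM. These groups overlapped, with a log2 change of 0.61 (SE 0.26, adjusted p = 0.065). It was called higher by DESeq2 (adjusted p = 0.049), with only the groups compared in the fit (0.049), without naive null libraries 1 and 2 (0.023), and without naive wild type library 2 (0.018) or naive null library 2 (0.036). In null mice Trib3 fell. Naive null libraries held 10.9, 14.1, 6.31, 5.93 and 6.69 TPM, all above the exposed null libraries at 4.98, 3.36, 3.39, 3.60 and 4.10 TPM. The log2 change was -0.82 (SE 0.24, adjusted p = 0.0077), a 1.76-fold lower level. Without naive null libraries 1 and 2 together it was -0.34 with an adjusted p of 0.24.

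Asns (chromosome 6, 7675169 to 7693254, minus strand) encodes asparagine synthetase. Its naive wild type libraries held 8.91, 9.21, 8.74 and 7.62 TPM and the exposed ones 8.98, 10.1, 6.68, 8.68 and 7.66 TPM. Naive null libraries held 15.9, 21.8, 9.81, 11.6 and 10.7 TPM and exposed null libraries 13.4, 7.19, 7.15, 9.45 and 9.36 TPM. Both pairs of groups overlapped. The log2 change was 0.34 in wild type mice (SE 0.21, adjusted p = 0.21) and -0.23 in null mice (SE 0.20, adjusted p = 0.36). The TPM scale gave -0.04 in wild type mice and -0.51 in null mice, the latter with a limma adjusted p of 0.017.

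Chac1 (chromosome 2, 119181710 to 119184862, plus strand) encodes an enzyme that degrades glutathione. It was scarce, at 21 to 125 estimated counts per library, or 0.516 to 2.40 TPM. Its log2 change was 1.05 in wild type mice (SE 0.44, adjusted p = 0.060) and 0.44 in null mice (SE 0.39, adjusted p = 0.39). Chac1 was called in neither genotype by edgeR on all 19 libraries without a block. In wild type mice it was called higher by DESeq2 (adjusted p = 0.046), with only the groups compared (0.043), without naive null libraries 1 and 2 (0.038), and without any 1 of 5 single libraries: naive wild type 2 (0.042), naive null 2 (0.036) or 5 (0.048), exposed wild type 4 (0.042) and exposed null 4 (0.047).

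The wider list of 24 ATF4 targets in amino acid supply and secretion had 8 higher and 3 lower of 23 tested in wild type mice, and 6 higher and 4 lower in null mice. The TPM scale gave 5 higher and 7 lower in wild type, and 5 higher and 9 lower in null mice. Within it, Gdf15, a secreted stress cytokine, rose from 29.3 ± 4.0 (SD, n = 4) to 1713 ± 418 TPM (SD, n = 5) in wild type mice (log2 6.25, SE 0.24). In null mice it rose from 42.5 ± 10.2 to 1206 ± 185 TPM (SD, n = 5 each, log2 5.18, SE 0.21). Slc7a11, the light chain of the cystine importer, went from 2.36 to 4.04 TPM in naive to 132 to 182 TPM in exposed wild type libraries (log2 5.95, SE 0.23). Its heavy chain Slc3a2 rose by 1.22 (SE 0.08) and the cationic amino acid transporter Slc7a1 by 1.54 (SE 0.16).

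Divided by function after the values were seen, the list held 7 transporters and 11 biosynthetic enzymes. Of the transporters, 5 rose and 0 fell in wild type mice, and 4 rose and 0 fell in null mice. Slc7a11, Slc3a2 and Slc7a1 also rose on the TPM scale in both, whereas Slc7a5 fell there, by 0.42 and 0.64. Of the enzymes, Mthfd2 alone rose in wild type mice while Aldh18a1 and Gpt2 fell, and in null mice 0 rose while Psat1, Aldh18a1 and Gpt2 fell. The median log2 change was 1.22 for the transporters and 0.02 for the enzymes in wild type mice, and 0.66 and -0.19 in null mice. Mthfd2 changed by 0.06 on the TPM scale in wild type mice and was not called. Of 20 cytosolic tRNA synthetases, another group of ATF4 targets, 5 rose and 0 fell in wild type mice, led by Eprs1 at 0.62 (SE 0.08) and Rars1 at 0.60 (SE 0.09). In null mice 5 rose and 2 fell. The direction of this group turned with the scale: in TPM, 1 rose and 11 fell in wild type and 0 rose and 14 fell in null mice.

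Sesn2 and Ddit4 connect stress to the growth kinase mTORC1, which both proteins restrain. Sesn2 (chromosome 4, 132219343 to 132237812, minus strand) encodes sestrin 2, a leucine sensor. Wild type libraries held 14.5, 15.4, 12.3 and 11.3 TPM when naive and 6.90, 9.60, 9.13, 6.43 and 6.16 TPM when exposed. Null libraries held 15.7, 17.2, 13.9, 15.8 and 17.0 TPM when naive and 11.8, 8.92, 7.46, 8.59 and 6.55 TPM when exposed. Every exposed library was below every naive one of its genotype. The log2 change was -0.44 in wild type mice (SE 0.14, adjusted p = 0.016) and -0.53 in null mice (SE 0.13, adjusted p = 0.0026), and on the TPM scale -0.75 and -0.83. The wild type call was lost without naive library 2 (adjusted p = 0.058).

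Ddit4 (chromosome 10, 59785491 to 59787656, minus strand) encodes REDD1, an activator of the TSC complex. The naive wild type libraries held 3.32, 7.60, 7.40 and 7.77 TPM, and the exposed ones 8.35, 9.67, 12.5, 11.7 and 4.47 TPM. These overlapped, since naive library 1 and exposed library 5 each stood far below the rest of their group. The log2 change was 0.87 (SE 0.32, adjusted p = 0.032). Without naive library 1 it was 0.65 (adjusted p = 0.12), and without exposed library 3 or 4 the adjusted p was 0.074 or 0.075. The TPM scale gave 0.45 (adjusted p = 0.17). Null libraries held 7.99, 4.33, 3.34, 2.80 and 5.41 TPM when naive and 4.08, 4.47, 3.76, 7.66 and 6.61 TPM when exposed, with a log2 change of 0.52 (SE 0.29, adjusted p = 0.17). Without naive null library 1 that change was 0.78 (adjusted p = 0.036).

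In the list of 19 other sestrin, REDD and mTORC1 genes, 5 rose and 6 fell in wild type and 2 rose and 7 fell in null mice, and on the TPM scale 0 rose and 10 or 12 fell. Mlst8, a core subunit of mTOR complexes, fell by 1.08 (SE 0.12) and 1.18 (SE 0.11), and Sesn1 fell by 0.89 (SE 0.21) and 0.91 (SE 0.20). Wdr24, of the GATOR2 complex that sestrins bind, fell by 0.81 (SE 0.12) and 0.63 (SE 0.11). Rheb, the small GTPase that activates mTORC1, rose by 0.47 (SE 0.07) and 0.44 (SE 0.06) in counts, with 0.09 in both on the TPM scale, where it was not called.

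Xbp1 and Hspa5 report on the ER branch. They moved in opposite directions. Xbp1 (chromosome 11, 5470659 to 5475893, plus strand) encodes the transcription factor made active by IRE1 splicing. Wild type libraries held 409, 468, 524 and 563 TPM when naive and 256, 358, 301, 255 and 214 TPM when exposed. Null libraries held 475, 409.9, 446, 500.4 and 555 TPM when naive and 289, 293, 254, 241 and 229.8 TPM when exposed. No exposed library reached the naive range of its genotype. The log2 change was -0.42 in wild type mice (SE 0.11, adjusted p = 0.0034) and -0.52 in null mice (SE 0.10, adjusted p = 2.3e-04). On the TPM scale, where the median of all genes moved by -0.34 and -0.32, the change of Xbp1 was -0.84 and -0.87.

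Hspa5 (chromosome 2, 34661982 to 34667559, plus strand) encodes BiP, the main ER chaperone, which also holds the ER stress sensors inactive. Wild type libraries held 396, 490.5, 408 and 401 TPM when naive and 927, 951, 812, 747 and 535 TPM when exposed. Null libraries held 491, 462, 520.1, 486 and 642 TPM when naive and 1395, 1367, 753, 850.3 and 873 TPM when exposed. The groups did not overlap in either genotype, although exposed wild type library 5 stood near the naive range. It rose 2.39-fold in wild type mice (log2 1.25, SE 0.17, adjusted p = 5.6e-06) and 2.55-fold in null mice (log2 1.35, SE 0.16, adjusted p = 6.0e-07). Its rise was 0.88 and 0.97 on the TPM scale.

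The Hspa5 promoter (chr2:34771990-34772089, plus strand, 100 bases before the start) held 1 complete ER stress element, shown in capitals over its whole length at -65 to -47.
Hspa5: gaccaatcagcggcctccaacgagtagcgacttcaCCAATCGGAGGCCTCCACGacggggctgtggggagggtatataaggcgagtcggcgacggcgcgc
Elements of the same form were found in 7 of the 16 ER chaperone genes that had a promoter in the table. They are aligned here because they share the Hspa5 element, with CCAAT and CCACG in capitals and each read in the direction that puts CCAAT first.
Calr: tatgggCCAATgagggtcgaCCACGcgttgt
Canx: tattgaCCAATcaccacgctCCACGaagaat
Ero1b: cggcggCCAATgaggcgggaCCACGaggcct
Pdia6: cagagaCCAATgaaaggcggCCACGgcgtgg
Creld2: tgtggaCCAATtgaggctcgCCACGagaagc
Dnajc3: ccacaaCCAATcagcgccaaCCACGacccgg
They lie at chr8:84847069-84847099 (Calr), chr11:50325794-50325824 (Canx), chr13:12565676-12565706 (Ero1b), chr12:17266485-17266515 (Pdia6), chr15:88819514-88819544 (Creld2) and chr14:118937821-118937851 (Dnajc3). Hsp90b1 held 2 such elements. Calr, Canx, Ero1b, Pdia6 and Hsp90b1 were called higher in both genotypes, by 0.47, 0.38, 0.71, 0.26 and 0.22 in wild type mice. Ero1b alone of the 5 was also called higher on the TPM scale, in wild type mice, where Pdia6 and Hsp90b1 were at -0.11 and -0.16. Creld2 changed by 0.04 and 0.27 and Dnajc3 by 0.18 and 0.17, and neither passed the test. Of the 9 list genes without the element, 5 rose and 1 fell in each genotype.

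Of the 20 ER chaperones and foldases, 11 rose and 2 fell in each genotype. Dnajb9 encodes ERdj4, a co-chaperone that acts on BiP. Its naive wild type libraries held 66.4 to 91.8 TPM and its exposed ones 105 to 182 TPM (log2 1.24, SE 0.18), and in null mice 88.4 to 106 and 141 to 281 TPM (log2 1.47, SE 0.17). The oxidoreductase Ero1a rose by 0.80 (SE 0.08) and 0.58 (SE 0.08), and Ero1b by 0.71 (SE 0.09) and 0.39 (SE 0.09). The lectin chaperone Canx rose by 0.38 (SE 0.06) and 0.26 (SE 0.05) in counts, but changed by 0.01 and -0.08 on the TPM scale. Of the 20, 3 rose and 5 fell on that scale in wild type mice, and 2 rose and 5 fell in null mice.

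Of 26 genes for ER-associated degradation and protein entry, 10 rose and 0 fell in each genotype in counts. Herpud1, a degradation factor at the ER membrane, went from 111 ± 3.64 (SD, n = 4) to 265 ± 29.8 TPM (SD, n = 5) in wild type mice (log2 1.65, SE 0.12). In null mice it went from 129.8 ± 18.6 to 294 ± 51.7 TPM (SD, n = 5 each, log2 1.57, SE 0.11). Sel1l, Vcp and Sec23b rose by 0.50, 0.30 and 0.47 in wild type mice in counts, but were at 0.15, -0.08 and 0.10 on the TPM scale and not called there. By that scale 1 of the 26 rose and 10 fell in wild type and 2 rose and 13 fell in null mice. Herpud1 and Dnajb9 rose on both scales.

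Among 12 genes of the ER stress sensors, 4 rose and 3 fell in each genotype (on the TPM scale 1 and 9, and 2 and 9). Atf6, which encodes the sensor cleaved in the Golgi, rose by 0.78 (SE 0.10) and 0.64 (SE 0.09). Traf2, an adaptor of IRE1, rose by 0.50 (SE 0.09) and 0.53 (SE 0.08), and Wfs1, an ER membrane protein that restrains ATF6, fell by 1.16 (SE 0.17) and 1.02 (SE 0.16). Ern1, which encodes IRE1, changed by -0.13 (SE 0.09) and -0.15 (SE 0.08) and was not called, but was called lower on the TPM scale (-0.48 and -0.45). It is named after its value was seen.

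**Figure D3:**
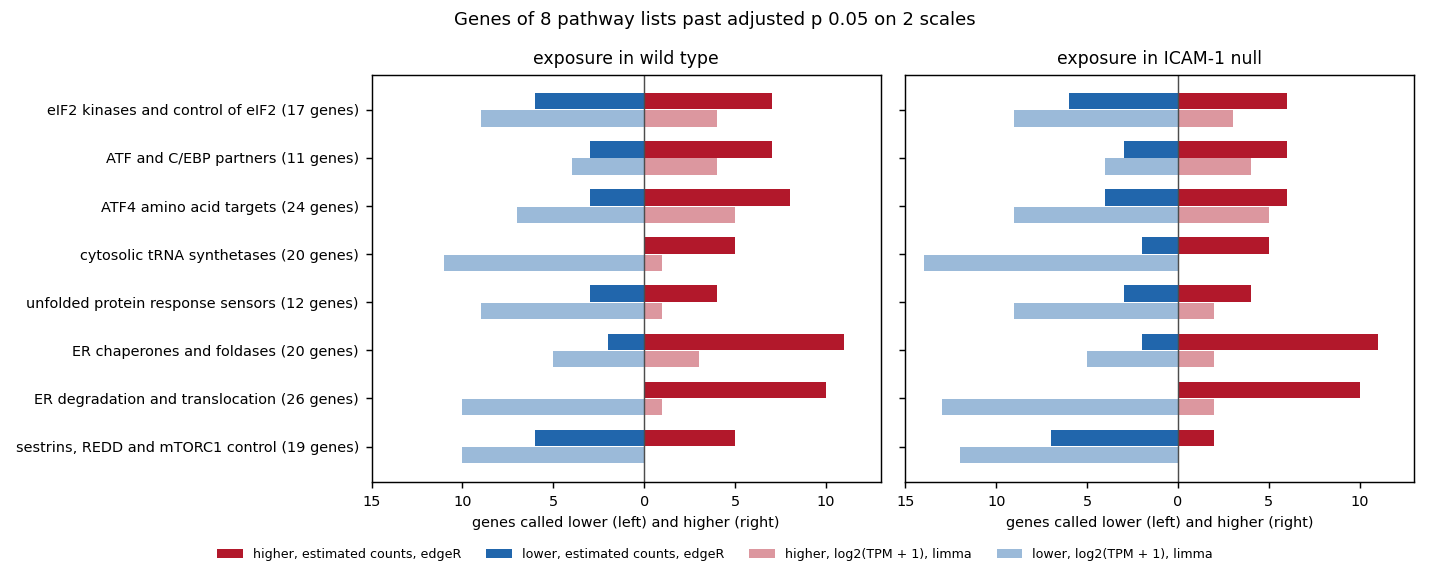
Number of genes called lower (bars to the left) and higher (bars to the right) with exposure in 8 pathway lists, in wild type (left panel) and null mice (right panel), from estimated counts (dark) and from the TPM scale, log2(TPM + 1) (pale). The ER lists have 11 and 10 genes higher in counts in each genotype, and fewer on the TPM scale, where every list has more genes lower than in counts.

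The genotypes were compared next in naive mice. Of the 10 genes, 3 were higher in null mice and 0 lower, Trib3, Ppp1r15a and Asns, beside 6.86% of all tested genes called and 4.31% called higher. TPM did not overlap between the genotypes for these 3 genes, beside 11.3% of all tested genes. With the library values given above, Trib3 averaged 3.55 ± 1.31 (SD, n = 4) in wild type and 8.78 ± 3.58 TPM (SD, n = 5) in null mice, a 2.59-fold difference (log2 1.37, SE 0.26, adjusted p = 0.0014). Asns averaged 8.62 ± 0.695 and 13.96 ± 4.96 TPM (log2 0.78, SE 0.21, adjusted p = 0.026). Ppp1r15a averaged 6.69 ± 0.448 and 9.84 ± 1.04 TPM (log2 0.57, SE 0.12, adjusted p = 0.0049).

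Naive null libraries 1 and 2 stood apart for some of these genes but not for all. For Ppp1r15a library 1 was the lowest of its group (8.50 TPM) and library 2 the highest (10.95 TPM). The same held for Slc7a11 (5.78 and 12.5 TPM). For Trib3 libraries 1 and 2 held 10.9 and 14.1 TPM against 5.93 to 6.69 TPM in the other 3. For Asns they held 15.9 and 21.8 against 9.81 to 11.6 TPM. Their totals, 78813004 and 60793152 counts, lay in the range of their group from 59834507 counts upward, and their neutrophil sums lay within those of the other 3. Their summed red cell genes, 216 and 352 TPM, were above the 97.7 to 172 TPM of the other 3, and their lymphocyte sums, 476 and 484 TPM, above 402 to 471 TPM. The part of those cells was not tested. With both left out, Trib3 was higher by 0.89 (adjusted p = 0.024) and Ppp1r15a by 0.60 (adjusted p = 0.012), and Asns by 0.41 (adjusted p = 0.32). The Asns call was also lost without either of them alone (adjusted p = 0.062 and 0.091) and without wild type naive library 1, 3 or 4 (0.060, 0.067 and 0.071). The TPM scale gave it an adjusted p of 0.062. Wild type naive libraries 1 to 3 had the fewest counts of the 19, and without all 3 of them none of the 10 genes was called, with 1 wild type library left that is assumed to vary like the other groups.

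Of the 23 tested genes in the list of other ATF4 targets, 6 were higher and 0 lower in naive null mice. Slc7a11 held 2.99, 3.15, 2.36 and 4.04 TPM in wild type and 5.78, 12.5, 8.89, 9.56 and 10.6 TPM in null libraries (log2 1.66, SE 0.19, adjusted p = 2.8e-06). Psat1, of serine synthesis, held 16.5, 21.6, 17.1 and 20.8 against 46.2, 44.4, 30.3, 33.9 and 35.9 TPM (log2 1.09, SE 0.12, adjusted p = 3.0e-06). For these genes every null library was above every wild type one. Slc3a2 was higher by 0.47 (SE 0.08) and Phgdh, the first enzyme of serine synthesis, by 0.38 (SE 0.08). The mitochondrial folate enzymes Mthfd2 and Shmt2 were higher by 0.67 (SE 0.16) and 0.38 (SE 0.11). Shmt2 was not called on the TPM scale (limma adjusted p = 0.14).

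Of the tRNA synthetases, 3 of 20 were higher in naive null mice, Aars1 (0.42), Yars1 (0.40) and Cars1 (0.26). On the TPM scale Aars1 was called, while Yars1 and Cars1 were not (limma adjusted p = 0.083 and 0.33). Atf5, a factor translated under the same control as ATF4, was higher by 0.48 (SE 0.13). Without naive null libraries 1 and 2, 4 ATF4 targets and 0 tRNA synthetases were called higher. Atf4 itself was 245 ± 24.7 TPM in null and 228 ± 7.35 TPM in wild type mice (log2 0.17, SE 0.08, adjusted p = 0.27). Gcn1, the activator of GCN2, was higher by 0.89 (SE 0.10) and Tmbim6, an ER membrane protein that restrains IRE1, by 0.61 (SE 0.06). In the same comparison 3 of 9 tested neutrophil markers were higher and 0 lower, with Csf3r at 1.73 and S100a8 at 1.38 on the log2 scale. Of 11 tested lymphocyte markers 1 was higher and 1 lower, Cd2 at -1.01, and of 18 epithelial markers 1 was higher. The part of these cells was not tested.

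Among the 10 genes, the ATF4 targets and the tRNA synthetases, 11 genes with a promoter in the table were called higher here. Of these, 5 held a C/EBP-ATF element. Of the 32 others, which include the untested Fgf21, 7 did, beside 3.97% of all promoters. Those 7 were Chac1, Pycr1, Fgf21, Vldlr, Gars1, Iars1 and Tars1. A part of the element in the genotype difference was not tested. The elements are aligned because this is the word bound by ATF4 with its C/EBP partners, read so that TGATG comes first, with the element in capitals. Chac1, which was not called, is added for comparison.
Trib3: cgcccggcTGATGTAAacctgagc
Asns: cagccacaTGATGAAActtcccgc
Slc7a11: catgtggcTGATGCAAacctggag
Aars1: ggctcggcTGATGCAAtgctcaag
Yars1: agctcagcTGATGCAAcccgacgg
Chac1: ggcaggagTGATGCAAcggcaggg
They lie at 15 to 22 after the start in Trib3 (chr2:152344031-152344054), at -23 to -16 in Asns (chr6:7693217-7693240), at -66 to -59 in Slc7a11 (chr3:50443664-50443687), at -112 to -105 in Aars1 (chr8:111033722-111033745), at 4 to 11 in Yars1 (chr4:129189898-129189921) and at -193 to -186 in Chac1 (chr2:119351041-119351064). Slc7a11 and Aars1 each held another. Psat1, Phgdh, Shmt2, Mthfd2, Slc3a2 and Ppp1r15a were higher without a match in this window.

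**Figure D4:**
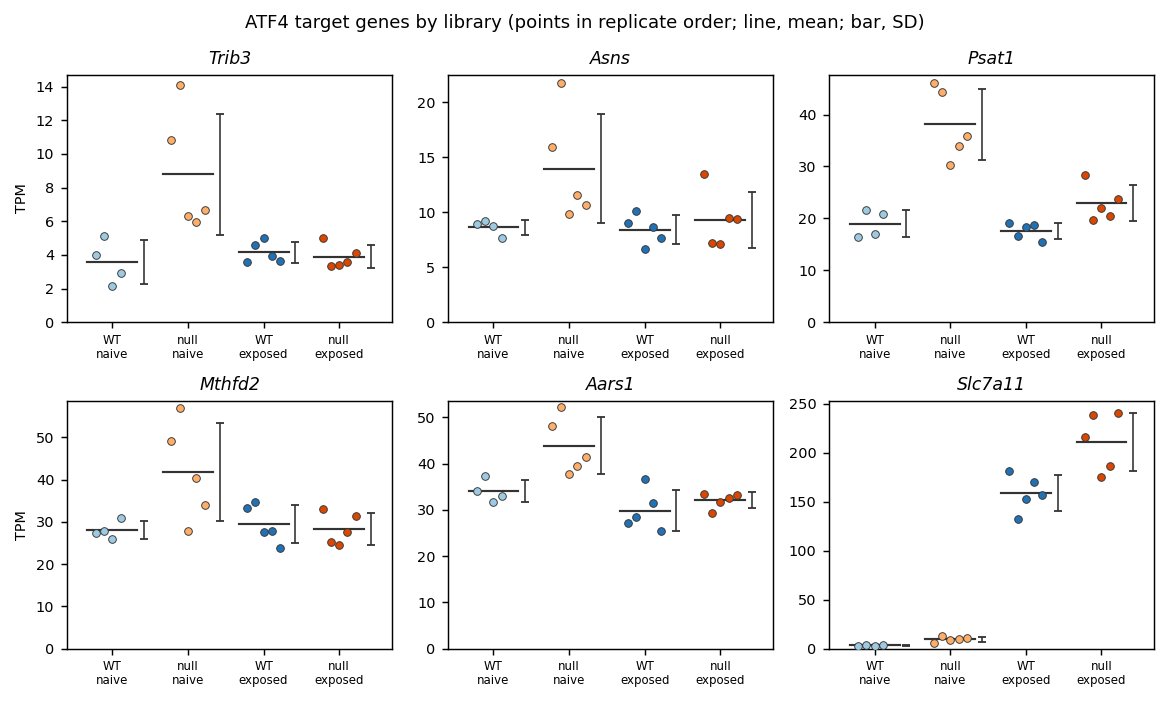
Level in TPM (y axes, starting at 0) of Trib3, Asns, Psat1, Mthfd2, Aars1 and Slc7a11 in every library; points are libraries in replicate order, lines are means and bars are SD. Naive null libraries 1 and 2 are the highest of all 19 for Trib3, Asns, Psat1, Mthfd2 and Aars1, while Slc7a11 is highest in exposed libraries.

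The genotypes were also compared after exposure. Of the 10 genes only Ppp1r15a was called between exposed null and exposed wild type mice. Of all tested genes 8.48% were called, and 4.43% of all tested genes were called higher. It averaged 83.9 ± 16.0 TPM (SD, n = 5) in null and 63.5 ± 5.06 TPM (SD, n = 5) in wild type mice (log2 0.43, SE 0.11, adjusted p = 0.017), and the groups overlapped. The call was lost without exposed wild type library 2 (adjusted p = 0.050) or exposed null library 1 (0.056) or 2 (0.059). Hspa5 averaged 1048 ± 308 against 794 ± 167 TPM (log2 0.43, SE 0.16, adjusted p = 0.11), and was called without exposed null library 3 (log2 0.54, adjusted p = 0.030). Trib3 was at -0.05 (SE 0.24, adjusted p = 0.94) and Asns at 0.21 (SE 0.20, adjusted p = 0.65). Of the 23 tested genes in the list of other ATF4 targets, 3 were higher in exposed null mice and 0 lower. They were Psat1, Phgdh and Slc3a2, which were also higher in naive null mice. Gcn1 was higher by 0.87 on the TPM scale (limma adjusted p = 8.2e-06). No TPM range of the 10 genes was separate between exposed groups, beside 6.21% of all tested genes. Of the ER chaperones, 4 of 20 were higher in exposed null mice, Dnajb9 (0.61), Calr (0.28), P4hb (0.22) and Pdia3 (0.21), and 0 were lower. In the same comparison 5 of 5 tested red cell genes were lower in null mice. Of 18 epithelial markers 4 were lower and 1 higher, of 9 tested neutrophil markers 2 were lower and 4 higher, and of 11 tested lymphocyte markers 2 were lower and 0 higher. The part of these cells was not tested. The Dnajb9 call was lost without exposed wild type library 4 or 5 or exposed null library 1 or 2.

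Whether the response to the particles itself differed by genotype was tested as an interaction, the null response minus the wild type response. It was called for 0 of the 10 genes in edgeR, beside 0.332% of all genes. Trib3 had the largest value, -1.43 (SE 0.35, unadjusted p = 5.7e-04, adjusted p = 0.10), and was the only one of the 10 with an unadjusted p under 0.05. DESeq2 called it (adjusted p = 0.011). Without naive null libraries 1 and 2 it was -0.94 (adjusted p = 0.35). Atf4 was at -0.20 (SE 0.11, adjusted p = 0.58), Ppp1r15a at -0.15 (SE 0.17, adjusted p = 0.86), Xbp1 at -0.10 (SE 0.15, adjusted p = 0.89) and Hspa5 at 0.09 (SE 0.23, adjusted p = 0.95). Among the pathway lists Slc7a11 alone passed, at -1.19 (SE 0.25, adjusted p = 0.040). Of the 19 single libraries, left out in turn, 15 took its adjusted p above 0.05, with values from -1.34 to -1.06. Slc7a11 rose in both genotypes, from a higher naive level in null mice. Exposed null libraries held 216, 238, 175, 187 and 241 TPM, and exposed wild type ones 132 to 182 TPM. Naive libraries held 5.78 to 12.5 TPM in null and 2.36 to 4.04 TPM in wild type mice.

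Across all 19 libraries the genes whose depth-scaled log2 counts were most like each of the 10 are given as a description, over 14154 genes, and the libraries share the shift with exposure. Atf4 was nearest to Casp4, Gtf2h1 and Gk (Pearson r from 0.991 to 0.992), and Ppp1r15a to Tgif1, Mafk and Rabgef1 (0.994 to 0.995). Hspa5 was nearest to Hdlbp, Dnajb9 and Aff1 (0.97 each), and Ddit3 to Hspa5 itself (0.94), H2-M2 and Ptgir. Xbp1 was nearest to Klhl24, Fcho2 and Zkscan3 (0.935 to 0.944) and Sesn2 to Timm29, Rab11fip5 and Gprc5c (0.906 to 0.937). Ddit4 was nearest to the interleukin 2 receptor chains Il2rb (0.935) and Il2ra (0.925) and to Serpine2. Trib3 was nearest to Aars1, Psat1 and Yars1 (0.85, 0.82 and 0.80), and Asns to Mthfd2, Bok and Atf5 (0.88, 0.82 and 0.81). Chac1 had the weakest neighbours, Atf2, Rb1 and Tm2d1 (0.750 to 0.778).

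Within groups, after each group's mean was taken out, Trib3 varied with Chac1 (r = 0.72) and Asns (0.68), and naive null libraries 1 and 2 were the highest of their group for all 3. Hspa5 varied with Ddit3 (0.63), Sesn2 (0.59) and Ppp1r15a (0.57). Exposed null libraries 1 and 2 were the highest of their group for Hspa5, Ddit3, Ppp1r15a and Atf4. These are 19 points from 4 groups and carry no test. Ddit3 and Sesn2 also varied together within groups (0.69), although across groups Ddit3 rose and Sesn2 fell with exposure. So did Hspa5 and Xbp1 (0.54), although across groups Hspa5 rose and Xbp1 fell with exposure.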

How the data were processed

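Poly(A) RNA of 19 lavage cell pellets was sequenced as read pairs, per the labels' protocols. The submitters' processing notes name STAR, StringTie 2 and GRCm39. The authors deposited estimated counts per gene, as whole numbers not scaled for depth, and TPM scaled to about the same sum in every library. Counts were fitted in edgeR 4.0.16 (R 4.3.3): 1 mean per group over 19 libraries, TMM scaling, default expression filter, quasi-likelihood F test, two-sided, Benjamini-Hochberg over 20501 genes, called at adjusted p under 0.05. Alternatives were RLE scaling, DESeq2 1.42.0, no filter, limma 3.58.1 on log2(TPM + 1) and log2(TPM + 0.1) for genes with a group mean of at least 1 TPM, only the groups compared, the replicate number as a block, and libraries left out. The script was tested on simulated data with known changes.

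The 10 genes and all lists were chosen with earlier results of these data known. Named list genes are up to 4 per list and comparison with the smallest p, an adjusted p under 0.05 and at least 1 TPM, and of other cells, the 2 most abundant markers; further genes, named to complete a small count, a subgroup or a promoter match, were chosen after their values were seen. Totals were 32828217 to 80309234 counts per library, and the sources used here do not state how many counts a fragment gives. Chac1, the scarcest of the 10 genes, had the largest standard errors. Promoters are RefSeq's on GRCm38.p6 and all 10 genes matched by symbol; Aars1, Cars1, Yars1 and other synthetases were matched by older symbols (16 names). Overlapping genes may share reads: besides Ddit3 with Mars1, Ppp1r15a overlaps Tulp2 and Sesn2 overlaps Gm12981. Same-numbered libraries of different groups did not vary together (27 correlations of deviations, -0.05 to 0.07), so no block was fitted except where stated.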

Additional observations from a re-analysis of the deposited data

Results flagged for a closer look

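In naive wild type mice, Ddit4 was at 3.32 TPM in library 1, far below the next lowest library of its group (7.40 TPM). In the same group Hspa5 was at 490.5 TPM in library 2, far above the next highest (408 TPM). Both were picked out by the gap to the nearest library relative to the range of the group. Of 40 such groups of libraries examined, 2 stood out. The critical value used (Dixon's) is passed by about 1 in 20 groups by chance alone. Of the 10 genes, edgeR called an interaction for 0, while DESeq2 called 1, Trib3.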

How the results depend on the processing

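Counts of all genes called moved by more than 1.5 times as follows. With wild type naive libraries 1 to 3 left out together, exposure in wild type mice called 4253 genes in place of 8245, genotype in naive mice 321 in place of 1406 and 0 of the 10 genes in place of 3, and the interaction 10 in place of 68. With ICAM-1 null naive libraries 1 and 2 left out, an alternative chosen after seeing the data, the interaction called 38 genes and exposure in wild type mice 9 of the 10 genes in place of 7. DESeq2 called 260 interaction genes and 1 of the 10 (Trib3), the unfiltered fit called 38 and log2(TPM + 1) called 112. Phgdh, at 0.02 with exposure in wild type mice in counts, was lower by -0.36 on log2(TPM + 1) and by -0.36 on log2(TPM + 0.1), both called. Leaving out 1 library at a time gave 0 to 2 of the 10 genes for genotype in exposed mice and 34 to 82 interaction genes. It gave 6 to 9 of the 10 for exposure in wild type, 7 to 8 in null and 2 to 3 for genotype in naive mice.

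With the replicate block, 8 of the 10 genes were called with exposure in wild type mice, 7 in null mice and 3 for genotype in naive mice; of all genes it called 7808, 9037 and 1365. Under it Trib3 (0.71, adjusted p = 0.023) and Chac1 (1.06, adjusted p = 0.039) became called in exposed wild type mice and Ddit4 was lost (adjusted p = 0.055). Of the 10 genes, Chac1, Trib3 and Ddit4 had the lowest maxima, at 125, 902 and 667 estimated counts in a library. The part of depth in their spread was not tested.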
